A study of Rattus norvegicus with 9 samples.

Results

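Cytosolic ribosomal protein genes were followed in the RNA of rat alveolar macrophages after lung injury with nitrogen mustard (NM). The members were all genes with symbols of the form Rpl or Rps plus a number, with the letter and number endings of paralogs, together with Rplp0, Rplp1, Rplp2 and Rpsa. Kinases of the Rps6k family were left out. This rule gave 83 genes of 17088, of which 79 passed the filter on low values (3 or more of the 9 libraries at 1 FPKM or above). The 4 members that did not pass were Rpl36 and Rpl27l2, listed at 0 in all 9 libraries, and Rpl39l1 and Rpl3l, which reached at most 0.920 and 1.20 FPKM. A further 134 annotated genes that fit the rule, Rps9 among them, had no row and were not analysed here.

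Male Wistar rats of 225 to 250 g received PBS or mechlorethamine hydrochloride, the NM used, at 0.125 mg/kg into the trachea. The 3 groups were PBS, NM day 1 and NM day 28, named for the time from NM to cell collection, with 3 libraries each, numbered 0, 1 and 2 and described by the submitters as biological replicates. The sources used here did not give the day of the PBS collection or say whether a library held 1 animal or a pool. The study's stated subject was foam cells, which are lipid-laden macrophages, in NM-induced fibrosis. The values were FPKM, fragment counts divided by transcript length and by a measure of library size, and their sum was not equal between libraries.

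The eukaryotic ribosome has a small subunit, which reads the messenger RNA and is built with Rps proteins, and a large subunit, which joins amino acids and is built with Rpl proteins. Rplp0, Rplp1 and Rplp2 form the stalk of the large subunit, which recruits elongation factors. In mammals most messenger RNAs for these proteins begin with a C followed by a run of pyrimidines, the 5′ terminal oligopyrimidine (TOP) motif, through which growth signalling by mTOR controls their translation. Alveolar macrophages are the phagocytes of the airspaces, and some ribosomal proteins, such as RPL13A in human monocytes, have roles outside the ribosome during inflammation.

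The start regions of many members, though not of all, held a pyrimidine run like that of the TOP motif. RefSeq promoter entries (build GRCr8) were found for 67 of the 83 members, in 68 entries that run from 250 bases before to 50 bases after the annotated start. A pyrimidine run was read as a C followed by at least 4 bases that are each C or T on the gene's strand, whatever base came before. Read from exactly the annotated start, it was found in 23 of 68 member entries (33.8%), against 2.6% of 33469 entries in the whole table. A run counted in this way can be part of a longer one that began further upstream. Within 5 bases of the start the shares were 57.4% and 17.0%. CCGGAAG, the core of an ETS-factor site, was found on either strand of the window in 29.4% of member entries and 8.7% of all. TATAAA was found in 11.8% and 14.2%, and CACGTG in 7.4% and 6.4%. The following stretches hold 30 bases before and 20 bases from the start. Capitals mark the run from the first C within 5 bases of the start that at least 4 pyrimidines follow. In Rpl35 and Rpl22 the pyrimidines just before the capitals belong to the same longer stretch. Rpl35 is shown as the member with the highest mean FPKM and Rps18 as a typical TOP start. Rpl22 with Rpl22l1 and Rps27 with Rps27l are paralog pairs that differed in level. Only Rpl22l1 and Rps27l of these were called below, and whether the response differed within a pair was not tested. Rps19 and Rplp2 are shown because their transcripts were called in the comparisons below.
Rpl35: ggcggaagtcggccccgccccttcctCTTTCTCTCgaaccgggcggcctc
Rps18: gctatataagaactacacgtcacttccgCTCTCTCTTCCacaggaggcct
Rpl22: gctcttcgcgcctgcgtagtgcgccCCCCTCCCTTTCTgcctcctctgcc
Rpl22l1: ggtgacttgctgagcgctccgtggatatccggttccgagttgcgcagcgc
Rps27: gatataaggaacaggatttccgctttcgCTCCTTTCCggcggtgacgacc
Rps27l: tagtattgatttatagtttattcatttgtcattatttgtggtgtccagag
Rps19: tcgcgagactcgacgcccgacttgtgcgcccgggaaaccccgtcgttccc
Rplp2: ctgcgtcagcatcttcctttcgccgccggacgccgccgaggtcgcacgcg
In GRCr8 these lie at chr3:43165902-43165951 on the minus strand for Rpl35, chr20:4933715-4933764 on the plus strand for Rps18 and chr5:168117931-168117980 on the plus strand for Rpl22. Rpl22l1 lies at chr2:113683166-113683215 on the plus strand, Rps27 at chr2:177964587-177964636 on the minus strand and Rps27l at chr8:76443628-76443677 on the plus strand. Rps19 lies at chr1:89608658-89608707 and Rplp2 at chr1:205975891-205975940, both on the plus strand. Rpl22 and Rps27 have the run and their paralogs Rpl22l1 and Rps27l do not, at these annotated starts. The lack of a match says only that these letters were not within 5 bases of the annotated start.

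These transcripts made up a large part of the summed FPKM of every library. FPKM is divided by transcript length, so this is not their share of the fragments. They took 23.2, 23.8 and 23.9% of the summed FPKM in PBS, 22.6, 20.1 and 24.1% at NM day 1, and 24.2, 18.9 and 23.7% at NM day 28. The group shares were 23.6 ± 0.379% (SD, n = 3), 22.3 ± 2.05% and 22.2 ± 2.91%. The shares overlapped between all groups, and replicate 1 of each NM group had the lowest share of its group. The 6 members with the highest mean FPKM were Rpl35, Rplp1, Rps19, Rpl37l1, Rpl38 and Rpl32. Of the 79 members tested, 67 averaged 1000 FPKM or more and 8 averaged 500 to 1000 FPKM. The remaining 4 were Rpl22l1, Rps27l, Rps4y2 and Rps12l4. Ribosomal protein genes have many near-identical copies in the genome, and the sources used here did not say how the submitters treated reads with several matches, so that the split of reads between a gene and its copies is uncertain for every member.

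The libraries differed in ways that touch every member. The summed FPKM of all genes was 969540, 942668 and 789477 in PBS, 709397, 712663 and 776058 at day 1, and 845425, 713358 and 796068 at day 28. All day 1 libraries were below all PBS libraries, while day 28 overlapped with PBS. The upper quartile over transcript rows was close to constant, from 19.1 to 19.6 FPKM. The libraries were also sequenced to unequal relative depth, read from the steps between low FPKM values: PBS was 1.42 to 2.58 times, day 1 was 1 to 1.47 times and day 28 was 1.04 to 1.13 times the shallowest library. The part of depth in the values below was not tested. Absolute depth is unknown, so no counting interval can be given. In bulk RNA, fewer cells of a type and less RNA per cell cannot be told apart.

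The median member differed between libraries of 1 group as well as between groups. Relative to each member's PBS mean on the log2(FPKM + 1) scale, the median member stood at 0.12, 0.07 and -0.20 in the PBS libraries. It stood at -0.28, -0.54 and -0.13 at day 1, and at 0.02, -0.62 and -0.12 at day 28. NM day 28 replicate 1 and NM day 1 replicate 1 were the lowest of the 9, and PBS replicate 2 was lower than 1 of the 3 day 1 libraries and 2 of the 3 day 28 libraries. The number of the 79 members below every PBS library was 44, 64 and 28 at day 1 and 20, 66 and 28 at day 28. The other genes with a mean of at least 1000 FPKM, 41 in number, had medians of 0.21, 0.09 and -0.29 in PBS, -0.47, -0.40 and -0.24 at day 1, and -0.15, -0.41 and -0.29 at day 28. The members and these other abundant genes thus both had their lowest PBS median in replicate 2 and medians below 0 in 5 and 6 of the 6 NM libraries.

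**Figure D1:**
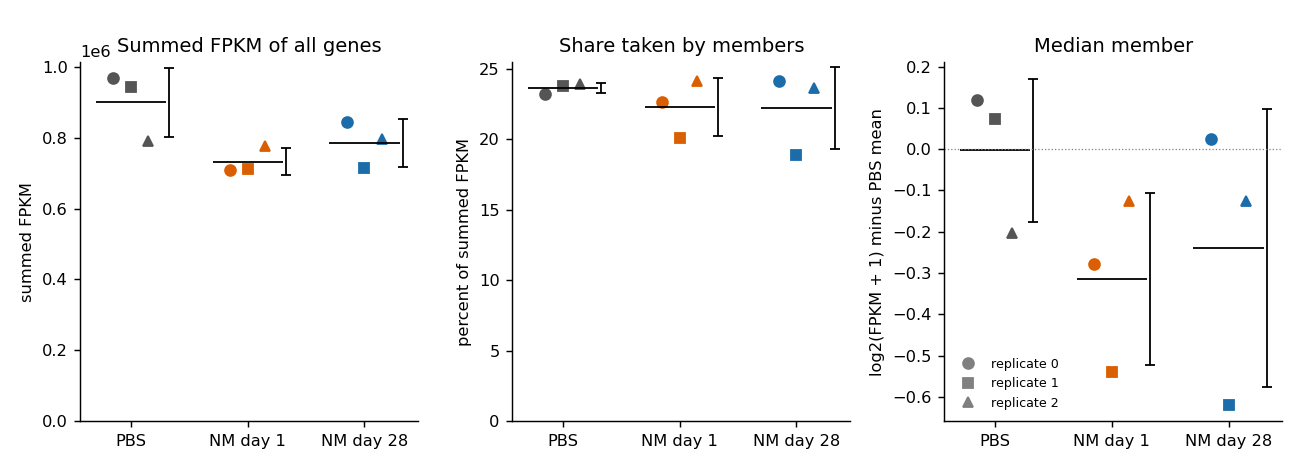
Each point is 1 library (marker shape gives the replicate number), each line a group mean and each bar the SD over 3 libraries. The panels plot summed FPKM of all genes, the percent of it taken by ribosomal protein genes, and the median member's log2(FPKM + 1) minus its PBS mean. NM day 28 replicate 1, at 18.9% and -0.62, is the lowest point of the last 2 panels.

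The comparison of NM day 1 with PBS asks what the early injury did. The median log2 fold change of the 79 members was -0.33, beside -0.039 over all 9876 genes tested, and 68 members had a negative value. No member passed the threshold, a Benjamini-Hochberg adjusted p under 0.05 over all genes in limma: 0 were called higher and 0 lower, where 5.3% of all genes were called higher and 4.59% lower. At an unadjusted p under 0.05, 1 member was higher and 15 were lower, beside 11.6% and 13.7% of all genes. For 28 members every day 1 library lay below every PBS library and for 0 members above, beside 18.1% and 15.2% of all genes. Without NM day 28 replicate 1, which enters the shared estimate of spread, 8 members were called lower, Rpl35 and Rps19 among them. Of the 9876 genes 719 were then called lower, where 453 were with all libraries. Without NM day 1 replicate 2, 1 member was called lower, beside 284 genes. Without PBS replicate 0, 1 member, Rps27l, was called higher, beside 344 genes.

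At day 28 members were called in both directions. The median of the 79 members against PBS was -0.23, beside -0.039 over all genes, and 61 members had a negative value. Rps4y2 and Rps19 fell and Rpl22l1 and Rps27l rose, so that 2 members were called lower and 2 higher, where 3.97% of all genes were called lower and 3.07% higher. At an unadjusted p under 0.05, 18 members were lower and 2 higher, beside 13.7% and 10.2% of all genes. For 20 members all day 28 libraries lay below PBS and for 2 above, beside 14.4% and 12.7% of all genes. The median was -0.06 without NM day 28 replicate 1 and -0.35 without NM day 28 replicate 0. Without PBS replicate 1, 0 members were called either way, beside 154 of all genes higher and 117 lower. The comparison shares its PBS libraries with that of day 1.

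Between the NM times, where the PBS libraries enter only the estimate of spread, the median member differed by 0.08 and the median gene by -0.0039. Rps4y2, Rps12l4 and Rplp2 were lower at day 28 than at day 1. In all 1 member was called higher and 3 lower, beside 4.76% of all genes higher and 6.89% lower. At an unadjusted p under 0.05, 7 members were higher and 5 lower, beside 12.3% and 14.7% of all genes. For 6 members all day 28 libraries lay above all day 1 libraries and for 8 below, beside 15.1% and 15.7% of all genes. Without NM day 28 replicate 1 the median became 0.29, and 6 members were called higher and 1 lower. Of the 9876 genes, 629 were then called higher and 774 lower.

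**Figure D2:**
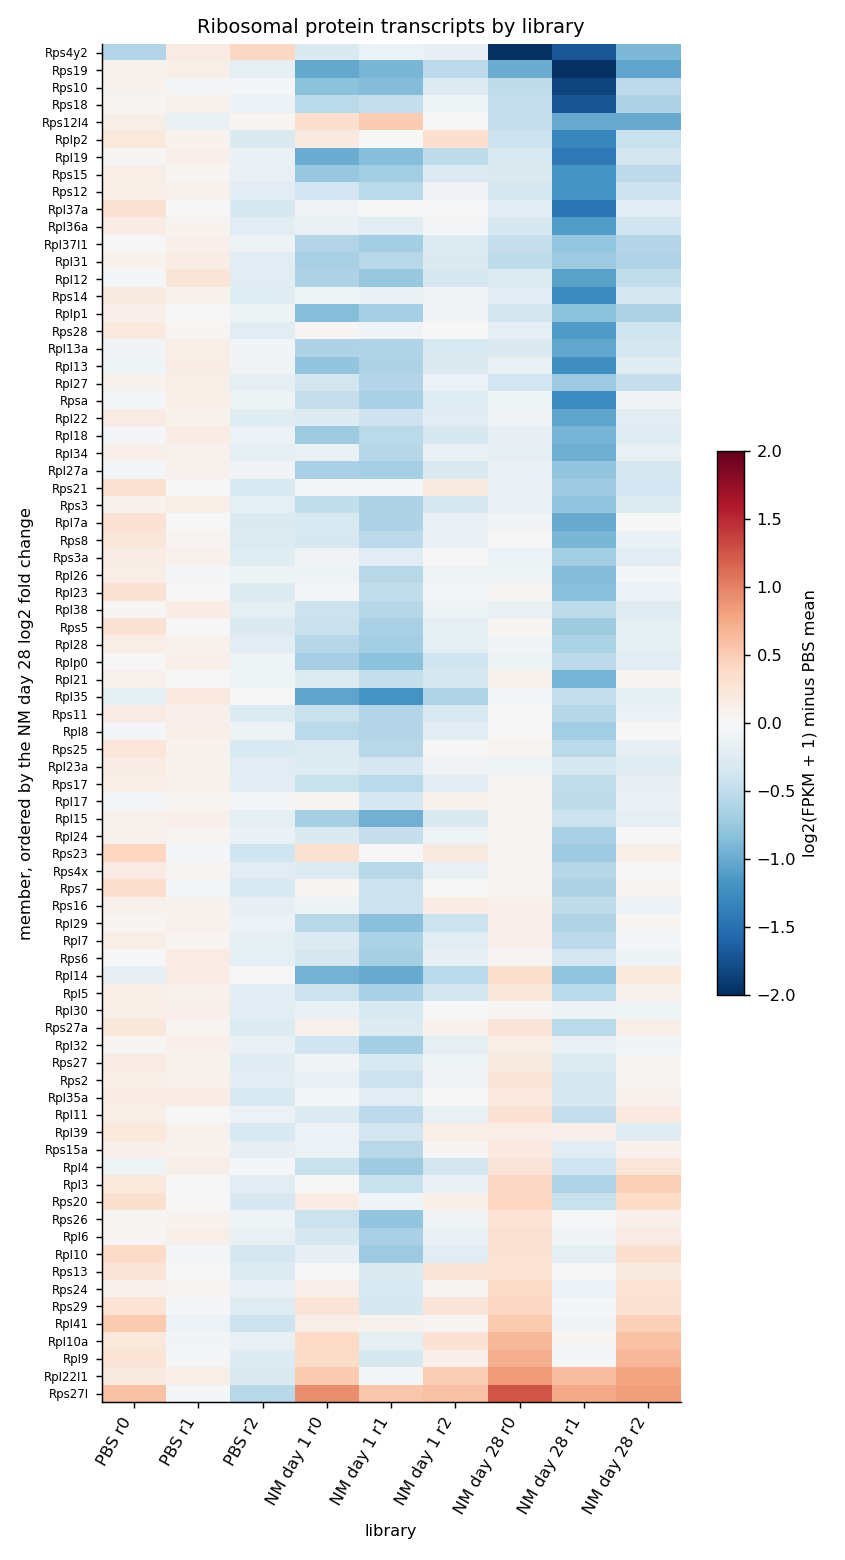
Each row is a member that passed the filter and each column 1 library. Colour gives log2(FPKM + 1) minus the member's PBS mean, from -2 (blue) to 2 (red), and rows are ordered by the log2 fold change of NM day 28 against PBS. Most rows are blue in replicate 1 of each NM group, and the last rows, Rpl22l1 and Rps27l, are red at day 28.

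Small subunit members (33 tested) had median log2 fold changes against PBS of -0.20 at day 1 and -0.22 at day 28. Rps19, which is needed to mature the small subunit and whose human gene is mutated in Diamond-Blackfan anaemia, was among the most abundant. It had 10009, 10147 and 8169 FPKM in PBS, 4609.7, 4976 and 6545 at day 1, and 4736, 2023 and 4512 at day 28. Every NM library lay below every PBS library, and the times overlapped, with NM day 28 replicate 1 the lowest. Rps19 fell at day 28 by 1.42 ± 0.33 (SE) on the log2 scale, with a limma adjusted p of 0.0258, while the day 1 value of -0.82 ± 0.33 had an adjusted p of 0.148. The call was lost without PBS replicate 0 (adjusted p = 0.0710) or replicate 1 (0.106), with no filter (0.0930) and with the 6 libraries alone (0.0728).

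Rps4y2, named as a copy of the small subunit protein S4, had low values. They were 8.95, 15.7 and 18.8 FPKM in PBS, 11.2, 12.8 and 12.3 at day 1, and 2.67, 3.56 and 6.94 at day 28. All day 28 libraries were below all others, while PBS and day 1 overlapped. It fell by 1.54 ± 0.31 (SE, log2) from PBS to day 28, with a limma adjusted p of 0.0118, and by 1.36 ± 0.31 from day 1 to day 28, with an adjusted p of 0.0145. The first call was lost without PBS replicate 1 (0.0562) and after scaling to the median member (0.0597), and the second without NM day 1 replicate 1 (0.0563) or NM day 28 replicate 0 (0.0543). Rps4x, the X-linked S4 gene and the main source of this protein, had 2134 ± 282 FPKM (SD, n = 3) in PBS, 1707 ± 238 at day 1 and 1902 ± 412 at day 28, and no comparison of it passed the threshold (adjusted p from 0.409 to 0.739).

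Rps27l is a paralog of Rps27 that p53 induces in human and mouse cells. Its 2 rows were the same RefSeq transcript with and without a locus suffix. Summed, they gave 115, 74.1 and 51.4 FPKM in PBS, 146, 112 and 114 at day 1, and 184, 129.5 and 137 at day 28. All day 28 libraries exceeded all PBS libraries, and day 1 overlapped with both. It rose by 0.95 ± 0.26 (SE, log2) at day 28 with a limma adjusted p of 0.0439, while the day 1 value of 0.69 ± 0.26 had an adjusted p of 0.114. The call was among the least stable, and was kept in 13 of 23 alternatives. It was lost without PBS replicate 1 (0.143) or 2 (0.102), without NM day 1 replicate 0 (0.0569), 1 (0.0601) or 2 (0.0655), without NM day 28 replicate 0 (0.131) or 2 (0.0868), with no filter (0.0919), with transcript rows tested singly (0.0575) and with the 6 libraries alone (0.0939). Rps27 itself, the small subunit protein also called metallopanstimulin, was far more abundant, at 3017 ± 427 FPKM in PBS, 2714 ± 246 at day 1 and 2975 ± 453 at day 28, with log2 fold changes against PBS of -0.15 and -0.02 (limma adjusted p of 0.730 and 0.968).

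Rps12l4, annotated as a copy of Rps12, lay at the limit of the filter. It had 1.18, 0.816 and 1.07 FPKM in PBS, 1.53, 1.87 and 1.03 at day 1, and 0.469 in 1 day 28 library, while the other 2 day 28 libraries listed it at 0. All day 28 libraries were below all others. On the log2(FPKM + 1) scale it was lower at day 28 than at day 1 by -1.11 ± 0.28 (SE), with a limma adjusted p of 0.0262. It passed the filter through the groups in which it is higher, and no count of its reads is known. The call was lost without NM day 1 replicate 0 (0.0727) or 1 (0.0995), without NM day 28 replicate 1 (0.0535) or 2 (0.0750), after quantile normalisation (0.0814) and with the 6 libraries alone (0.0626), while the log2 difference ranged from -3.11 to -0.33 over 22 alternatives.

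The other small subunit members with known special roles were not called. Rps6, the substrate of the S6 kinases, had 3682 ± 425 FPKM (SD, n = 3) in PBS, 2830 ± 478 at day 1 and 3343 ± 438 at day 28. Rps3, which sits at the mRNA entry and also takes part in DNA repair, had 1736 ± 202, 1249.6 ± 130.2 and 1326 ± 292 FPKM. Rpsa, the laminin receptor precursor, had 2613 ± 221, 1915 ± 277 and 2021 ± 803 FPKM. The day 28 spread of Rpsa came from replicate 1 at 1094 FPKM, beside 2464 and 2504 in the other libraries. Rps27a, made as a fusion with ubiquitin, had 995 ± 170, 965 ± 131 and 979 ± 267 FPKM, and its log2 fold changes against PBS were -0.04 and -0.05. Among these 4 genes the limma adjusted p against PBS ranged from 0.188 for Rps3 at day 1 to 0.940 for Rps27a at day 1.

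Large subunit members outside the stalk (43 tested of 47) had medians of -0.37 at day 1 and -0.22 at day 28 against PBS. Rpl22l1 is a paralog of Rpl22, an RNA-binding large subunit protein that represses it in mouse cells. Rpl22l1 had 175, 169 and 126 FPKM in PBS, 224, 151 and 219 at day 1, and 282, 239 and 269 at day 28. Day 28 lay wholly above PBS and day 1, while PBS and day 1 overlapped. It rose by 0.76 ± 0.19 (SE, log2) from PBS to day 28, with a limma adjusted p of 0.0353, and its day 1 value of 0.33 ± 0.19 had an adjusted p of 0.313. The call was lost with no filter (0.0593), with PBS replicate 1 (0.0882) or 2 (0.0822) left out, with NM day 1 replicate 2 left out (0.0503), and with NM day 28 replicate 0 (0.102) or 2 (0.0970) left out. Rpl22 had 1533, 1433 and 1153 FPKM in PBS, 1142, 1019 and 1175 at day 1, and 1317, 655 and 1162 at day 28. Its groups overlapped, and its log2 fold changes against PBS were -0.30 ± 0.25 and -0.45 ± 0.25, with limma adjusted p of 0.504 and 0.311.

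Rpl35, at the exit of the peptide tunnel, was the most abundant member. It had 11696, 15339 and 13449.7 FPKM in PBS, 6478, 5888 and 8797 at day 1, and 13087, 9604 and 11854 at day 28. Day 1 lay below both other groups without overlap, and PBS and day 28 overlapped. Its day 1 value of -0.95 ± 0.29 (SE, log2) was the most negative of the family, and its limma adjusted p of 0.0624 was the smallest at that time. It passed the threshold with a pseudocount of 5 (0.0473), a filter of 5 FPKM (0.0364), robust variance estimates (0.0218), equal summed FPKM (0.0447), scaling to the median member (0.0183) and without NM day 28 replicate 1 (0.0299).

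The other named large subunit members did not pass the threshold in any comparison, but without NM day 28 replicate 1 Rpl3 and Rpl5 were called higher at day 28 than at day 1 (limma adjusted p of 0.0495 and 0.0402), and with rows tested singly so was Rpl32 (0.0405). Rpl5 and Rpl11, which bind and block Mdm2 and so stabilise p53 when ribosome assembly fails, had 1296 ± 156 and 853 ± 72.0 FPKM (SD, n = 3) in PBS. At day 1 they had 927 ± 88.8 and 687 ± 87.1 FPKM, and at day 28 they had 1254 ± 327 and 874 ± 229 FPKM. Rpl26, which binds p53 mRNA in human cells, had 2105 ± 186, 1789 ± 306 and 1726 ± 500.001 FPKM in PBS, day 1 and day 28. Rpl13a, the subunit of a translation-silencing complex in human monocytes, had 4931 ± 351, 3476 ± 430.1 and 3417 ± 898 FPKM, with log2 fold changes against PBS of -0.51 and -0.56 (limma adjusted p of 0.235 and 0.199). Rpl3, at the peptidyl transferase centre, had 895 ± 130, 781 ± 119 and 1000.04 ± 363 FPKM, and its muscle paralog Rpl3l stayed at or under 1.20 FPKM in every library. Rpl10, needed for joining of the subunits, had 2929 ± 749, 2256 ± 454 and 3208 ± 581 FPKM.

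Rpl7, a structural large subunit protein, had 1537 ± 158, 1193 ± 182 and 1401 ± 305 FPKM (SD, n = 3) in PBS, day 1 and day 28. Rpl39, in the peptide tunnel, had 3442 ± 613, 3154 ± 550.4 and 3431 ± 473 FPKM. Rpl32, Rpl38 and Rpl37l1, structural proteins of the large subunit, were the remaining members with the highest means. Rpl32, summed over 3 rows of the same RefSeq transcript, had 4957 ± 391 FPKM in PBS, 3711 ± 616 at day 1 and 4888 ± 496 at day 28. Rpl38 had 5624 ± 626, 4376 ± 746 and 4576 ± 575 FPKM. Rpl37l1, for which RefSeq lists the older symbol Rpl37, had 6722 ± 458, 4724 ± 729 and 4403 ± 474 FPKM, with log2 fold changes against PBS of -0.52 and -0.61 (limma adjusted p of 0.194 and 0.136). All NM libraries of Rpl37l1 lay below all its PBS libraries, whereas Rpl32 was in the PBS range at day 28 in 1 library, above it in 1 and below it in 1.

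The 3 stalk members differed among themselves. Rplp2, which pairs with Rplp1 to form the flexible arm of the stalk, had 2259, 2055 and 1601 FPKM in PBS, 2204, 1933 and 2452 at day 1, and 1452, 787 and 1427 at day 28. All day 28 libraries were below all others, and PBS and day 1 overlapped. It fell by 0.89 ± 0.26 (SE, log2) from day 1 to day 28, with a limma adjusted p of 0.0442, while its values against PBS were 0.16 at day 1 and -0.73 at day 28 (adjusted p of 0.746 and 0.108). The call between the times was kept in 12 of 23 alternatives. Settings that ended it included those without PBS replicate 1 (0.0690), without NM day 1 replicate 0 (0.119), 1 (0.0815) or 2 (0.130), without NM day 28 replicate 0 (0.0515), 1 (0.0776) or 2 (0.0588), with no filter (0.0807), with transcript rows tested singly (0.0576) and with the 6 libraries alone (0.0569).

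Rplp1 had 8440, 7758 and 7324 FPKM in PBS, 4354, 4929.9 and 7512 at day 1, and 6058, 4432 and 5096 at day 28. Day 28 lay below PBS, and NM day 1 replicate 2 lay within the PBS range. Rplp0, the base of the stalk, had 4228, 4519 and 3969 FPKM in PBS, 2666, 2409 and 3220.2 at day 1, and 3956, 2941 and 3646 at day 28. All its NM libraries were below its PBS libraries, though the lowest PBS value (3969) and the highest day 28 value (3956) nearly met. The log2 fold changes against PBS were -0.52 and -0.60 for Rplp1 and -0.62 and -0.28 for Rplp0, with limma adjusted p from 0.101 to 0.492.

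**Figure D3:**
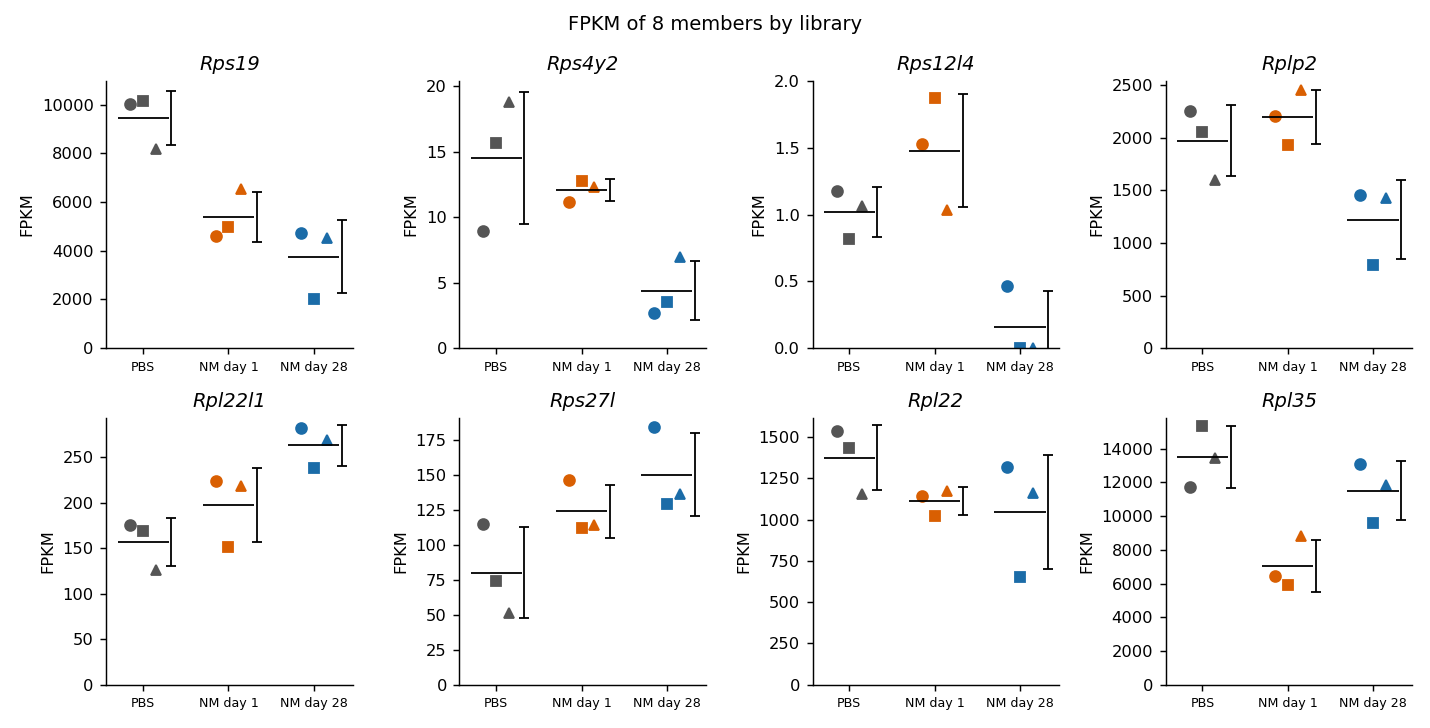
FPKM of Rps19, Rps4y2, Rps12l4, Rplp2, Rpl22l1, Rps27l, Rpl22 and Rpl35 in each library, by group, with the group mean (line) and SD over 3 libraries (bar). Marker shape gives the replicate number (circle 0, square 1, triangle 2). Day 28 lies below both other groups for Rps4y2, Rps12l4 and Rplp2 and above both for Rpl22l1, and day 1 lies below both for Rpl35.

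The shared shift depended on how libraries were scaled. Under the deposited scaling the member medians against PBS were -0.33 at day 1 and -0.23 at day 28. Median-of-ratios scaling, over all genes or over genes outside the family, gave -0.29 and -0.21 in both forms. The factors of both forms lay from 0.977 to 1.03. The deposited values were thus already near this scale, and its result was bound to be close to theirs. When every library was scaled to the same summed FPKM the medians became -0.033 and -0.03, and the median of all genes rose from -0.039 to 0.22 at day 1 and to 0.13 at day 28. With the sum taken over genes outside the family they were -0.058 and -0.06. Quantile normalisation gave -0.034 and 0.04, so that the day 28 sign turned. The call split of all genes moved with it: at day 1, 9.99% were called higher and 1.04% lower at equal summed FPKM, beside 5.3% and 4.59% as deposited.

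The member median was also read against the median of all genes under the same scaling. A scaling that multiplies a library by 1 factor shifts members and other genes alike, so under those scalings the difference is fixed by construction apart from the pseudocount and the filter, and its likeness across them shows no stability. The difference at day 1 was -0.29 as deposited, -0.28 under both median-of-ratios forms, and -0.26 under both equal sums and under scaling to the median member. At day 28 it was -0.19 as deposited, -0.19 under both median-of-ratios forms and -0.17 under the last 3. Under quantile normalisation, which gives each library the same distribution of values, it was 0.02 and 0.04. Between the NM times the member median was 0.08 as deposited, 0.07 under median-of-ratios scaling and -0.01 at equal sums.

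Calls of single members were compared across the same scalings. At equal summed FPKM, Rpl22l1 and Rps27l were called higher and Rpl35 lower at day 1, beside 9.99% and 1.04% of all genes. Rpl22l1 and Rps27l were called higher and Rps19 and Rps4y2 lower at day 28, beside 5.48% and 2.17%. Between the NM times 1 member was called higher and 6 were called lower, Rpl36a, Rplp2, Rps12l4, Rps21, Rps28 and Rps4y2, beside 3.13% and 8.61%. With the sum taken outside the family the members called were the same except that Rpl35 was not called at day 1, and the shares of all genes called higher and lower were 9.62% and 1.17% at day 1, 5.04% and 2.32% at day 28, and 3.18% and 8.86% between the times. Both forms of median-of-ratios scaling, which changed the deposited values little, gave the same 4 calls at day 28 as those values.

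Quantile normalisation gave more calls at day 28 than the deposited scaling. At day 1 it called 1 member higher, Rps27l, and 1 lower, beside 4.42% and 2.84% of all genes. At day 28 it called 8 members higher, among them Rpl22l1, Rps27l, Rpl10a, Rpl6, Rpl9, Rps13 and Rps24, beside 3.62% of all genes. It called 3 members lower, Rps18, Rps19 and Rps4y2, beside 3.29%. Between the NM times it called 5 members higher, among them Rpl14, Rpl35, Rpl4 and Rpl6, and 5 lower, Rpl37a, Rplp2, Rps18, Rps19 and Rps4y2, beside 5.85% and 6.14%. The members called at day 28 under the deposited scaling, Rpl22l1, Rps27l, Rps19 and Rps4y2, were thus all called under quantile normalisation too. Of the members called lower between the times under the deposited scaling, Rplp2 and Rps4y2 were called under quantile normalisation and Rps12l4 was not.

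**Figure D4:**
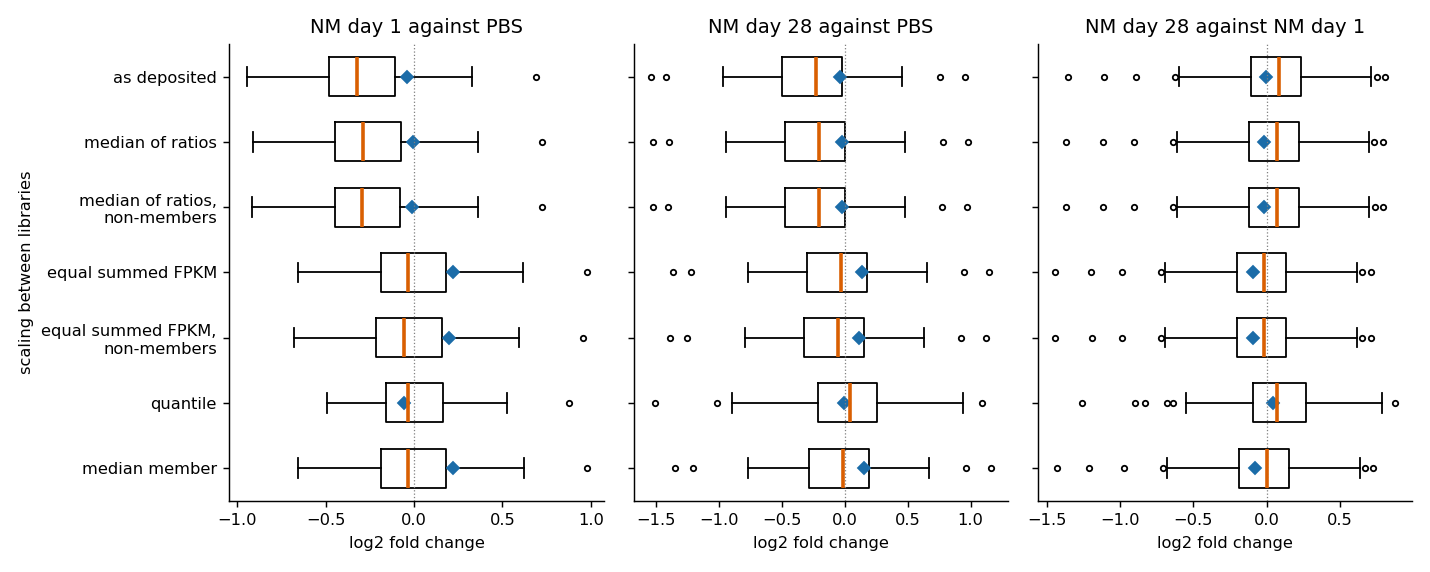
Box plots of the log2 fold changes of the members under 7 scalings, with 1 panel for each comparison. Boxes span the quartiles, whiskers reach the last value within 1.5 box lengths, circles are members beyond, the orange line is the member median and the blue diamond the median of all genes tested. Against PBS both move to the right at equal summed FPKM, and the member median reaches that of all genes under quantile normalisation.

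Genes outside the family had lower median fold changes the more abundant their class. At day 1 the median log2 fold change of other genes was 0.11 for a mean of 1 to 10 FPKM (3186 genes), -0.08 for 10 to 100 FPKM (5373 genes) and -0.25 for 100 to 500 FPKM (829 genes). It was -0.33 for 500 to 1000 FPKM (95 genes) and -0.39 for at least 1000 FPKM (41 genes), beside -0.36 for the 67 members of the highest class. At day 28 the other genes of the highest class had -0.33 and the members -0.23. The 8 members with 500 to 1000 FPKM had -0.16 and -0.02 at the 2 times, beside -0.33 and -0.28 for other genes of that class.

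**Figure D5:**
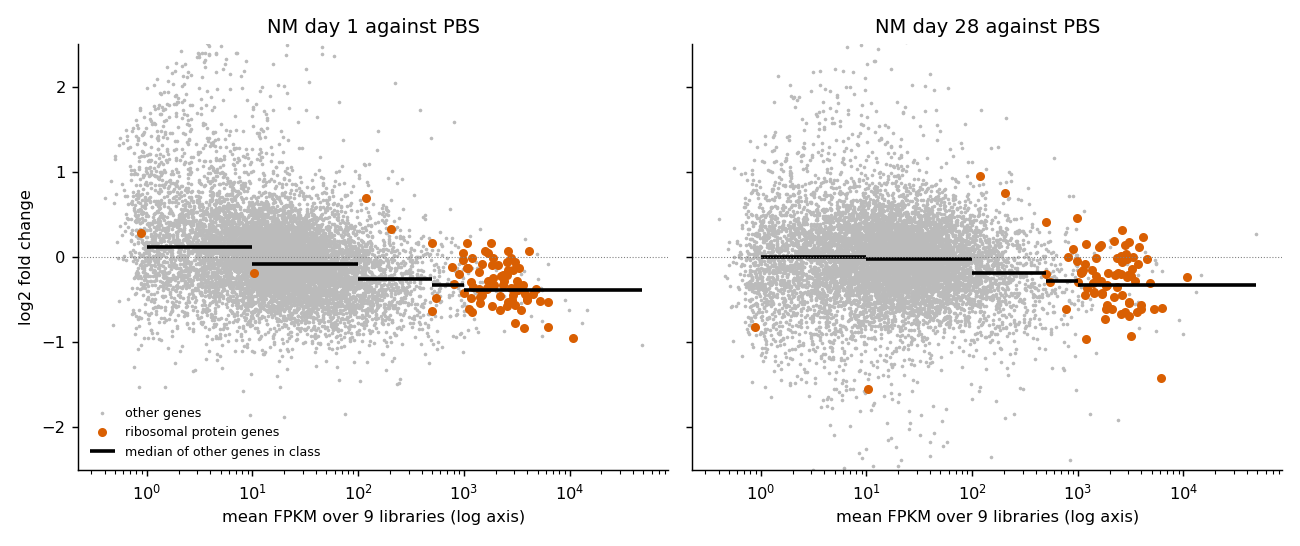
Log2 fold change against mean FPKM over 9 libraries (log axis) for ribosomal protein genes (orange) and other genes (grey), with black lines at the median of other genes in each abundance class. At day 1 the black lines step down from 0.11 to -0.39, and the members with at least 1000 FPKM lie around the last of them. The axis leaves out 87 other genes at day 1 and 39 at day 28.

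Differences within the family were also read after each library was scaled to its median member, a setting added after the data had been seen. The members themselves set this scale, so a rise or fall here is relative to the family. The setting takes out variation that members share, which by construction favours smaller p values and more calls for them. The SE of Rps19 at day 28 went from 0.33 as deposited to 0.17. Rps19 then fell by 1.21 at day 28 (limma adjusted p = 0.00155), Rpl22l1 rose by 0.97 (0.00577) and Rps27l by 1.17 (0.0126). Rpl10a and Rpl9 were also called higher, and Rps18 and Rplp2 lower, beside 2.84% of all genes higher and 1.12% lower. At day 1 Rpl22l1 and Rps27l were called higher and Rpl35 lower, beside 5.81% and 0.353%. Between the NM times 4 members were called higher, among them Rpl14, Rpl35 and Rpl4, and 10 lower, Rpl36a, Rpl37a, Rplp2, Rps12l4, Rps14, Rps18, Rps19, Rps21, Rps28 and Rps4y2, beside 1.71% and 5.7% of all genes. The genes named for this setting alone were picked with their values known. Between the times, 7 of the 10 members called lower belong to the small subunit, which holds 33 of the 79 members tested, and this division was not tested.

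Members were also split by the pyrimidine run. The 39 genes with the run within 5 bases of the start had medians of -0.28 at day 1 and -0.29 at day 28. The 28 genes without it, of which 24 were tested, had -0.32 and -0.23. Among 20 other genes whose mRNAs are known to carry the TOP motif, mostly elongation and initiation factors, the medians were -0.27 and -0.05. Hnrnpa1, an RNA-binding protein, rose at day 1 by 0.54 ± 0.15 (SE, limma adjusted p = 0.0406), and Eif3h, an initiation factor subunit, fell by 0.64 ± 0.17 (0.0367). Fau, whose fusion product yields the small subunit protein S30, had values of -0.46 and -0.33, and Rack1, a scaffold on the small subunit, had -0.33 and 0.02. Neither was called.

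Genes that make and regulate ribosomes gave few calls in each direction. Beside them, 5.3% of all genes were called higher and 4.59% lower at day 1, and 3.07% and 3.97% at day 28. Of 40 ribosome biogenesis genes, 1 rose at day 1 and 0 fell, and at day 28 1 rose and 3 fell. Gnl3, the nucleolar GTPase nucleostemin, rose at both times, by 0.77 and 0.71 (limma adjusted p of 0.0242 and 0.0403). Ncl, nucleolin, fell at day 28 by 0.64 (0.0217), Rrs1, a 5S particle assembly factor, by 1.28 (0.0312) and Sbds, which frees the large subunit of Eif6, by 0.57 (0.0321). Of 25 initiation factors 0 were called at day 1, where 4 were higher and 0 lower at an unadjusted p under 0.05, beside 11.6% and 13.7% of all genes. At day 28 Eif1ax alone rose, by 0.95 (0.0332), with 6 higher and 1 lower at an unadjusted p under 0.05, beside 10.2% and 13.7%. Of 18 growth signalling genes, 3 fell and 0 rose at day 1. These were Eif4ebp1, the cap-binding inhibitor controlled by mTOR (-0.70, adjusted p = 0.0307), the kinase Rps6ka1 (-0.62, 0.0332) and the kinase Akt1 (-0.53, 0.0486). Akt1 and Pdcd4, an Eif4a inhibitor, fell at day 28, by 0.73 and 0.64 (0.0156 and 0.0187).

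Genes of the p53 response, which ribosomal stress can engage, rose in part. Of 10 tested, 3 rose and 0 fell at each time against PBS, beside 5.3% and 3.07% of all genes called higher at day 1 and day 28. Cdkn1a, the cell cycle inhibitor p21, rose by 2.67 at day 1 and 2.57 at day 28 (limma adjusted p of 8.9e-05 and 0.000392). Mdm2, the p53 ligase, rose by 0.64 (0.0493) and 1.16 (0.00332). Phlda3, an Akt inhibitor, rose at day 1 by 1.28 (0.0380) and Ccng1, a cyclin, at day 28 by 0.85 (0.0160). Of 13 genes of ribosome quality control, 1 fell and 0 rose at day 1, and 1 rose and 0 fell at day 28, beside 4.59% of all genes called lower and 3.07% higher at these times. Edf1, a sensor of collided ribosomes, fell at day 1 by 0.93 (0.0260), and G3bp1, a stress granule protein, rose at day 28 by 0.61 (0.0420). NM is a DNA alkylating agent, and the share of any p53 response in the values of Rps27l was not tested.

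Other large complexes had day 1 medians closer to 0. Mitochondrial ribosomal proteins (65 tested) had medians of -0.12 and -0.04 against PBS at day 1 and day 28. Oxidative phosphorylation subunits (71 tested) had -0.18 and -0.27, and proteasome subunits (37 tested) had -0.06 and -0.16. Calls were 0 higher and 3 lower at day 1 for each of the first 2 and 0 and 1 for the proteasome, beside 5.3% of all genes called higher and 4.59% lower. At day 28 they were 1 and 3, 1 and 6, and 0 and 2, beside 3.07% and 3.97%. The differences between these families and the cytosolic ribosomal proteins were not tested.

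Markers of other cells moved between the groups beside these values. For the counts called below, the shares of all genes called higher and lower were 5.3% and 4.59% at day 1. At day 28 they were 3.07% and 3.97%. Resident macrophage markers summed to 1557 to 2940.0 FPKM in PBS, 1624 to 1824 at day 1 and 1834 to 2061 at day 28, with Marco, a defining scavenger receptor, listed at 0 in every library. Of the 7 tested, 2 rose and 1 fell at each time against PBS, with log2 fold changes from -0.57 to 3.85 at day 1 and from -0.73 to 2.52 at day 28. Neutrophil markers summed to 288 to 455, 715 to 1033 and 571 to 1064 FPKM, and 5 of 7 rose and 1 fell at day 1, while 4 rose and 0 fell at day 28. Alveolar epithelial markers summed to 213 to 329, 997 to 3015 and 277 to 379.9 FPKM, with 9 of 10 higher at day 1 and Sftpd listed at 0 throughout. T cell markers summed to 22.4 to 33.4, 61.3 to 71.4 and 28.3 to 35.3 FPKM, with 3 of 7 higher at day 1. B cell markers summed to 1.45 to 7.91, 1.98 to 3.62 and 0.285 to 0.848 FPKM, and the 1 tested, Blk, rose at day 1 by 1.19 (limma adjusted p = 0.0289) and fell from day 1 to day 28 by 1.28 (0.0178). Erythroid markers summed to 596 to 2578, 565 to 904 and 648 to 746 FPKM, with Ahsp at 0 in every library. Of these 0 of 4 were called by limma at either time, where 0 were higher and 2 and 1 lower at an unadjusted p under 0.05. At that threshold 13.7% of all genes were lower at each time. The part of all these cells in the ribosomal protein values was not tested.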

How the data were processed

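Per the labels' protocols, RNA was purified with RNeasy columns and libraries came from a TruSeq RNA kit, read in pairs. Per the submitters' processing notes, TopHat and Cuffdiff were used with rat build rn4; their versions, the annotation and the strand are not given in the sources used here. Values deposited by the authors are FPKM per RefSeq transcript (18197 rows), a unit in which absolute depth is unknown. The RefSeq gene table of GRCr8 gave a symbol to 17181 rows (94.4%), of which 246 rows had a locus suffix. FPKM of rows with 1 symbol were summed; 78 members had 1 row and 5 had several.

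Group differences on log2(FPKM + 1) were fitted in R 4.3.3 by limma 3.58.1 (lmFit, then eBayes with its trend option), using 3 group means over all 9 libraries and Benjamini-Hochberg adjustment over the 9876 genes tested. Fold changes on this scale understate those of low genes. The fit was tested on simulated data. Tables and motif counts came from Python 3.11.15 with pandas 2.3.3 and numpy 2.4.6, and figures from matplotlib 3.10.9. Under other scalings the filter was applied after scaling.

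Members named were the 6 with the highest mean, those called in a comparison and a list with known special roles or paralogs. Members, gene lists and tests were chosen with earlier results of these data known. No 2 libraries held identical values. The authors' tables of significant isoforms were not analysed here, and 2 genes are not reported here. The alternatives were pseudocounts of 0.1 and 5, other filters and scalings, rows tested singly, a block for the replicate number, fewer libraries and robust variance estimates.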

Additional observations from a re-analysis of the deposited data

Results flagged for a closer look

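A difference between the 2 NM times passed the limma threshold for these 3 members, each by the direct comparison of NM day 28 with NM day 1 (log2 scale, 3 libraries each). Rps4y2 differed by -1.36, Rps12l4 by -1.11 and Rplp2 by -0.89. Rps12l4 passed the filter on low values only through PBS and day 1, where it is higher, and its difference ranged from -3.11 to -0.33 over 22 alternatives. In each of the 3 all libraries of one time lay on one side of all libraries of the other. Against PBS, Rplp2 was 0.16 at day 1 and -0.73 at day 28, neither value past the threshold. Groups of 3 libraries were too small to look for single outlying libraries.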

How the results depend on the processing

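Over the alternatives, 1852 values of named members stayed on their side of the threshold, 27 passed it newly and 50 lost it. Of the 1852, 108 turned sign without passing the threshold under either setting, 65 of them under a scaling or quantile normalisation, and 0 called values turned sign. For day 1 the count of members called lower was 1 with a pseudocount of 5, a filter of 5 FPKM, equal summed FPKM, quantile normalisation, robust variance estimates or scaling to the median member, and 2 with the 6 libraries alone. In the same order, 462, 434, 103, 281, 454, 35 and 506 of all genes tested were called lower. The count called higher was 2 under both equal sums and the median member, and 1 under quantile normalisation. Beside these, 989 and 952 of all genes were called higher under the equal sums, 575 under the median member and 437 under quantile normalisation. The member median was -0.033 at equal sums, -0.058 at equal sums outside the family, -0.034 under quantile normalisation and -0.032 under the median member, where the median of all genes was 0.22. For day 28, 0 were called higher and 1 lower with no filter, 8 higher with a median of 0.039 under quantile normalisation, 1 higher with rows tested singly, 1 and 1 with the 6 libraries alone, and 4 higher under the median member. In the same order, the counts over all genes were 232 and 279, 358, 238 (rows), 220 and 212, and 281. Between the NM times, 0 were called higher with no filter, 0 higher and 1 lower with the 6 libraries alone, 6 lower under both equal sums, 5 and 5 under quantile normalisation, 2 higher with rows tested singly, and 4 and 10 under the median member. The matching counts over all genes were 420, 368 and 577, 852 and 877 lower under the equal sums, 578 and 606, 391 (rows), and 169 and 564. The cause of these changes was not tested. With genes with a symbol as denominator the PBS share was 24.2%. The scaling to the median member and the abundance classes were chosen after seeing the data.

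Leaving out 1 library gave 0 to 1 members higher, 0 to 8 lower and a median of -0.43 to -0.22 at day 1. At day 28 it gave 0 to 2, 0 to 2 and -0.35 to -0.06, and between the times 0 to 6, 0 to 3 and -0.06 to 0.29. Over all genes, 255 to 656 were called higher and 68 to 719 lower at day 1. The ranges were 154 to 367 and 117 to 425 at day 28, and 225 to 629 and 395 to 774 between the times. A group left with 2 libraries was assumed to vary like the others.

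The replicate numbers did not pair the samples: deviations of same-numbered libraries correlated at 0.12, 0.06 and -0.10 for day 1 and PBS, 0.20, -0.06 and -0.10 for day 28 and PBS, and 0.09, 0.17 and -0.01 for the NM times. With the replicate block, 1 member, Rps27l, was called higher at day 1 (adjusted p = 0.0432) and 0 were called higher between the times, where Rplp2, called lower without the block, had 0.0529. Of all genes, 481 were called higher with the block at day 1 and 414 between the times. The FPKM of Rps12l4 and Rps4y2 were the lowest of the members tested, and the part of depth in their values was not tested.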
